A study of Mus musculus with 8 samples.

Results

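Guidance genes encode the cell surface and secreted signals that steer axons, blood vessels and migrating cells. The genes described here are the 74 array genes, of 18193 in all, whose symbols mark them as Eph receptors (13), ephrins (8), semaphorins (20), plexins (10), neuropilins (2), netrins and genes named after netrin receptors (12), or Slits and Slit-like genes (9). They were chosen by the start of the symbol, not by their values, and each is represented by its probe set with the highest mean log2 intensity over all 8 arrays. A rule on names also takes in genes outside the guidance pathways: Unc50, which encodes a Golgi membrane protein, Unc5cl, a cytoplasmic relative of the UNC5 receptors, the antisense transcript Plxna4os1, and the 6 Slitrk genes of neuronal synapses.

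RNA was measured on 4 arrays of L-GMPs, cells of the granulocyte-macrophage progenitor (GMP) type sorted from the marrow of mice with an acute myeloid leukaemia of genotype HoxA9+Meis1 AML, and on 4 arrays of GMPs sorted from mice labelled Normal. Both groups were bone marrow cells purified by flow cytometry, and replicates carry the letters A to D. Strain, age, number of mice and how the leukaemia was made are not given in the sources used here, so arrays of a group may share an animal, and the p-values then speak only of array-to-array spread, which may be technical. The comparison asks how the leukaemic cells differ from their normal counterpart, and all values below are log2 of the deposited RMA intensity.

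The genes named in the genotype were checked first, and Meis1 went against the label. Its 3 probe sets were all lower on the arrays labelled L-GMP, with changes of -3.05, -1.47 and -2.07 and no overlap between groups. Hoxa9 gave opposite results in its 2 probe sets. One read 10.87 to 12.29 on the L-GMP arrays and 6.74 to 6.84 on the GMP arrays (change 4.82), and the other 2.54 to 2.92 against 9.19 to 9.79 (change -6.66). Whether these probe sets would detect an introduced copy of either gene is not known from the labels, so they do not settle the genotype. L-GMP below means the arrays so labelled, and every direction rests on that label.

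Ephrins are membrane-bound ligands of the Eph receptor tyrosine kinases, and signals run into both the cell that bears the receptor and the cell that bears the ephrin. Semaphorins signal through plexins, which act on small GTPases, and most of the secreted class 3 semaphorins need a neuropilin as co-receptor. Netrins bind DCC and the UNC5 receptors, and Slits bind the ROBO receptors. In blood cells several of these proteins are known as regulators of adhesion, migration and immune cell contact.

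The arrays labelled L-GMP differed from those labelled GMP in 7 of the 74 guidance genes (9.46%), where 12.1% of all genes passed the same threshold, so a call was about as frequent here as on the array as a whole. Plxnc1, the plexin that binds SEMA7A, was 4.07-fold lower in L-GMPs, and Nrp2, Sema4a, Unc5cl and Epha7 were lower by smaller amounts. Plxnd1 was 1.55-fold higher and Plxnb3 1.28-fold higher. The threshold is an adjusted p under 0.05 from limma over all 18193 genes. The 5 lower calls are 6.76% of the members, against 7.27% of all genes called lower, and the 2 higher calls are 2.70%, against 4.78%. The median change of the 74 genes was 0.05, and that of all genes 0.01. Only the calls of Plxnc1 and Plxnd1 held under all 18 alternatives run for each of them.

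Most guidance genes gave low signal. On every array 2 of the 74 lay above the upper quartile of all probe sets (7.39 to 7.46), Sema4d and Unc50, 16 lay above the median (5.24 to 5.49) and 13 lay below the lower quartile (3.65 to 3.75). For 69 of the 74 (93.2%) the 95% interval of the change lay within 1 in either direction, that is, within a doubling or a halving, as it did for 90.5% of all genes. The groups did not overlap in 13 of the 74 (17.6%), against 18.2% of all genes. Of these 13, 7 were higher in L-GMPs and 6 lower, where 8.53% of all genes were higher and 9.71% lower without overlap. Of the called genes Plxnc1, Nrp2 and Sema4a had changes of -1 or below, a size that 2.72% of all genes reached among the lower calls.

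**Figure D1:**
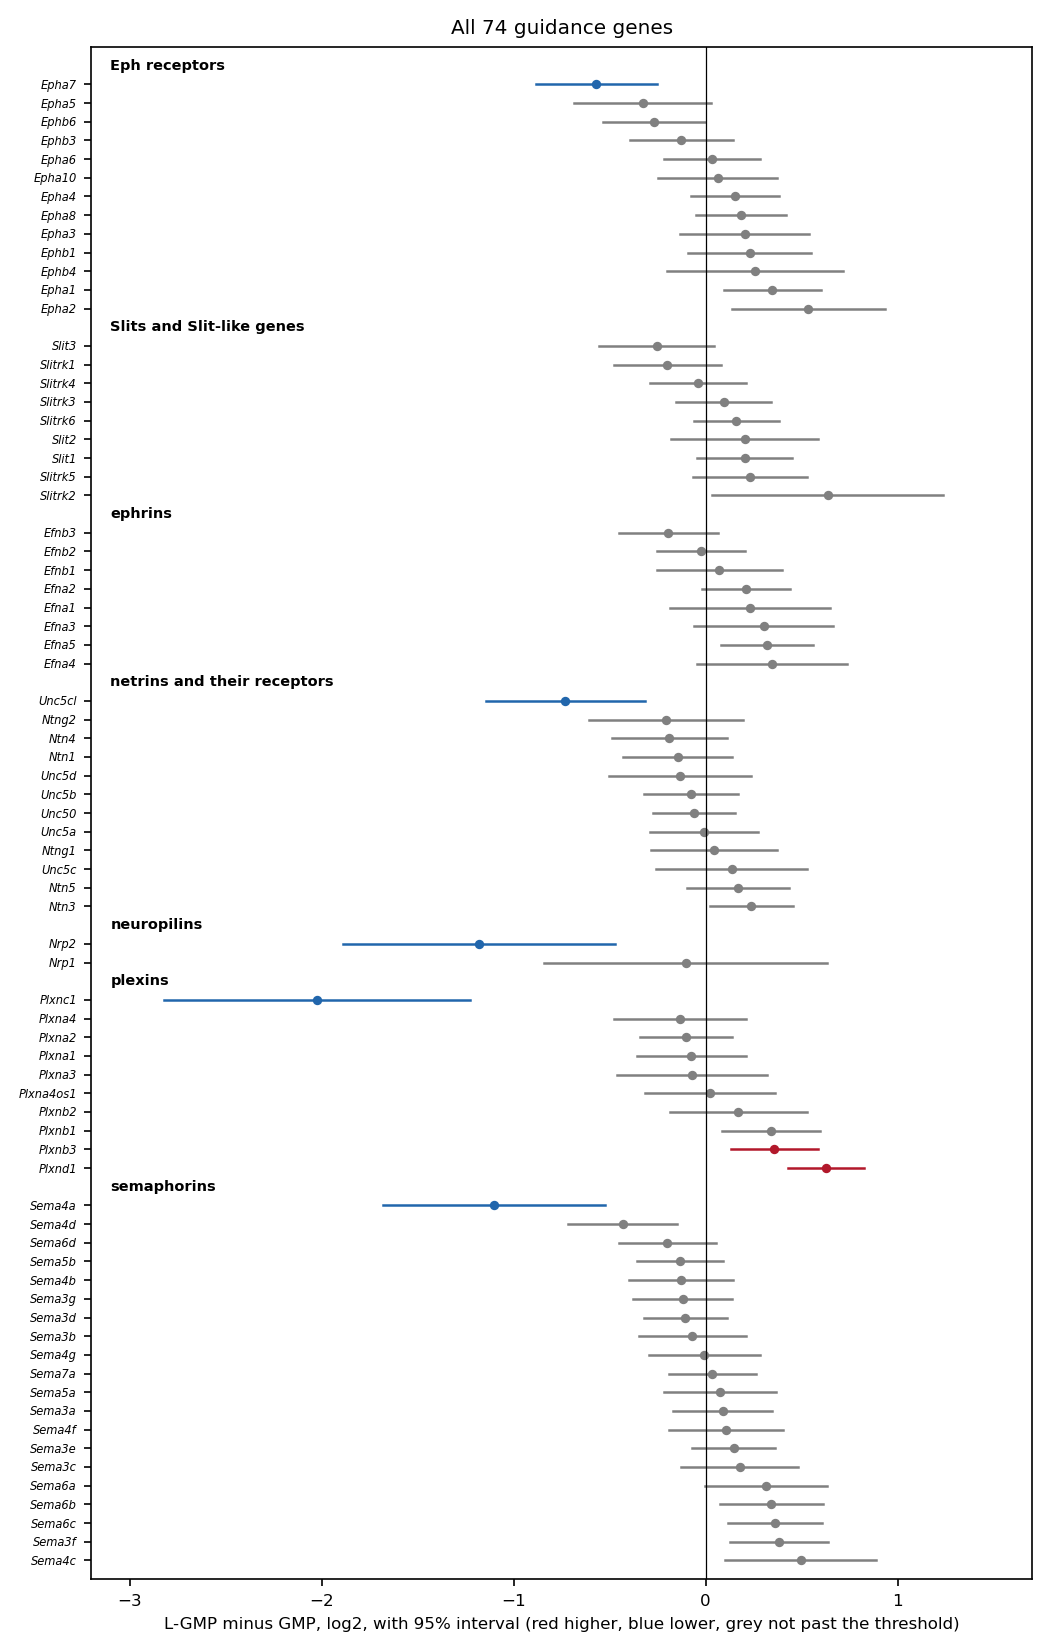
Change of each of the 74 guidance genes by family, as the log2 difference of L-GMP from GMP (x axis), with the 95% interval of the limma fit over 4 arrays per group. Plxnc1 at -2.02 lies farthest from 0, Nrp2 at -1.18 and Sema4a at -1.10 follow, and the 67 genes in grey, which did not pass the threshold, lie between -0.43 and 0.64.

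The promoters of Plxnc1 and Plxnd1 are shown because these plexins changed in opposite directions and kept their calls. RefSeq promoter windows on GRCm38.p6 were found for 63 of the 74 guidance genes. The 250 bases before the annotated start are printed 5′ to 3′ on the gene's strand, with capitals for each GAGGAA, the core that the myeloid factor PU.1 prefers. Plxnc1 lies at chr10:94944846-94945095 on the minus strand and Plxnd1 at chr6:115995006-115995255 on the minus strand.
Plxnc1: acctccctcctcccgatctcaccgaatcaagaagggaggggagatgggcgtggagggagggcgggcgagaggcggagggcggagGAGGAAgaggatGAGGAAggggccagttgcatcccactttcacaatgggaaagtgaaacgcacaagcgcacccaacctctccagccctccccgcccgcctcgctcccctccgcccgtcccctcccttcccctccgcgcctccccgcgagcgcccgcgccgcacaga
Plxnd1: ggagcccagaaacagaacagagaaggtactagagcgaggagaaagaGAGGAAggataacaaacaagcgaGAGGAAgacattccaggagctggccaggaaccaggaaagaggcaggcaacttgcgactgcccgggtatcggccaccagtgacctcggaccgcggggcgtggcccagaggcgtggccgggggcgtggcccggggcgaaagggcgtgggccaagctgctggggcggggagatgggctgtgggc

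Each window holds GAGGAA 2 times. Of 32851 RefSeq windows of this length, 23.3% hold GAGGAA or its reverse complement TTCCTC at least 1 time and 3.54% hold it at least 2 times. Of the 78 windows of guidance genes 24.4% hold it. TGACAG, the core of MEIS1 sites, and TGATTTAT, a site of HOXA9 with PBX, were searched on both strands in the same way, and neither window holds either of them. They occur in 15.9% and 0.837% of all windows and in 14.1% and 0% of the windows of guidance genes. GC content was 68.8% for Plxnc1 and 64.8% for Plxnd1, where the median of all windows was 52.4%.

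Plexins, the signalling receptors of semaphorins, held 3 of the 7 calls among 10 genes (30.0%), where 12.1% of all genes were called. The 10 include the antisense transcript Plxna4os1, and 1 of the 3 calls, Plxnb3, was lost under 11 of 17 alternatives. Plxnc1 read 6.48, 4.69, 6.38 and 5.05 on L-GMP arrays A to D, and 7.53, 7.79, 7.58 and 7.80 on GMP arrays A to D. Every L-GMP array lay below every GMP array, and among the L-GMPs replicates A and C were well above B and D. The change was -2.02 (SE 0.36, limma adjusted p = 0.00468), from 7.67 ± 0.14 to 5.65 ± 0.91 (SD, n = 4). Over all alternatives it ranged from -2.30 to -1.56, with adjusted p from 0.00215 to 0.0192. The spread among L-GMPs was larger than that of 99.0% of all genes in that group.

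The array carries 6 probe sets for Plxnc1, and in the fit over all probe sets 5 of them were lower in L-GMPs, with changes of -2.32 to -1.54 and adjusted p from 0.00155 to 0.0135. In that fit 10.9% of all 45037 probe sets passed and 7.03% were lower, and of the 160 probe sets of guidance genes 13 passed (8.13%), 12 of them lower. In each of these 5 probe sets the L-GMP and GMP arrays did not overlap, and L-GMP replicates A and C lay above B and D. The sixth, the dimmest, lay between 3.09 and 3.61 on all arrays and had a change of 0.03 (adjusted p = 0.924).

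Plxnd1, the receptor of SEMA3E in vessels and thymocytes, moved the other way with little spread. Its values were 7.27, 7.23, 7.26 and 7.12 on the L-GMP arrays and 6.57, 6.53, 6.63 and 6.64 on the GMP arrays. The groups were separate by more than the range within either of them. The change was 0.63 (SE 0.09, limma adjusted p = 0.00121), and 0.55 to 0.77 over all alternatives. Plxnd1 has a single probe set here.

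Plxnb3, a class B plexin that binds SEMA5A, read 4.57, 4.41, 4.50 and 4.32 in L-GMPs and 4.01, 3.98, 4.21 and 4.17 in GMPs, all below the median of their array. The groups did not overlap, and the change was 0.36 (SE 0.10, limma adjusted p = 0.0471). Of the 8 fits that leave out 1 array, only that without L-GMP replicate D kept the call (adjusted p 0.0618 to 0.134 in the others). With an offset of 16, which shrinks any change at so low a signal, the change was 0.19 (adjusted p = 0.0552). In the limma fit over all probe sets neither this probe set (adjusted p = 0.0565) nor the second, with a change of 0.24 (adjusted p = 0.237), passed. Plxnb1 and Plxnb2, the class B receptors of SEMA4D and SEMA4C, had changes of 0.34 (adjusted p = 0.0867) and 0.17 (adjusted p = 0.548). The 4 class A plexins, which signal together with neuropilins, had changes of -0.13 to -0.07 and none was called. Plxna1, the brightest of them, had a change of -0.07 with a 95% interval from -0.36 to 0.21.

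Neuropilins, the co-receptors of class 3 semaphorins and of VEGF, differed from each other. Nrp2 read 5.66, 4.03, 5.45 and 5.44 on the L-GMP arrays and 5.98, 6.50, 6.15 and 6.68 on the GMP arrays. All L-GMP arrays were lower, and replicate B lay far below the other three. The change was -1.18 (SE 0.32, limma adjusted p = 0.0370), 2.27-fold lower in L-GMPs, and -0.81 without L-GMP replicate B (adjusted p = 0.0118). The call was lost without L-GMP replicate C (limma adjusted p = 0.0520) and without GMP replicate B, C or D (0.0995, 0.0736 and 0.107). It was also lost after quantile normalization (0.0588), with the trended robust prior (0.0521) and with the replicate letter as a block (0.0547). The mean of its 4 probe sets had a change of -0.52 and was not called (0.125). Of those 4 probe sets only the brightest was called, and the others had changes of -0.60, -0.36 and 0.06.

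Nrp1, which marks some regulatory T cells, was not called and had a wide range among L-GMPs. It read 6.84, 5.58, 7.58 and 6.72 there, and 6.80, 7.07, 6.56 and 6.70 in GMPs. L-GMP replicate C was the highest and replicate B the lowest of all 8 arrays, and the same arrays were at the ends in the next brightest probe sets (7.26 and 4.13, then 7.04 and 4.59). The change was -0.10 (limma adjusted p = 0.880), with a 95% interval from -0.84 to 0.63. The next brightest probe sets had changes of -0.86 and -0.64 (adjusted p = 0.324 and 0.376 over all probe sets), and the mean of all 4 a change of -0.43 (adjusted p = 0.456). The SD of Nrp1 among L-GMPs, 0.83, exceeded that of 98.7% of all genes, whereas among GMPs it was 0.22.

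**Figure D2:**
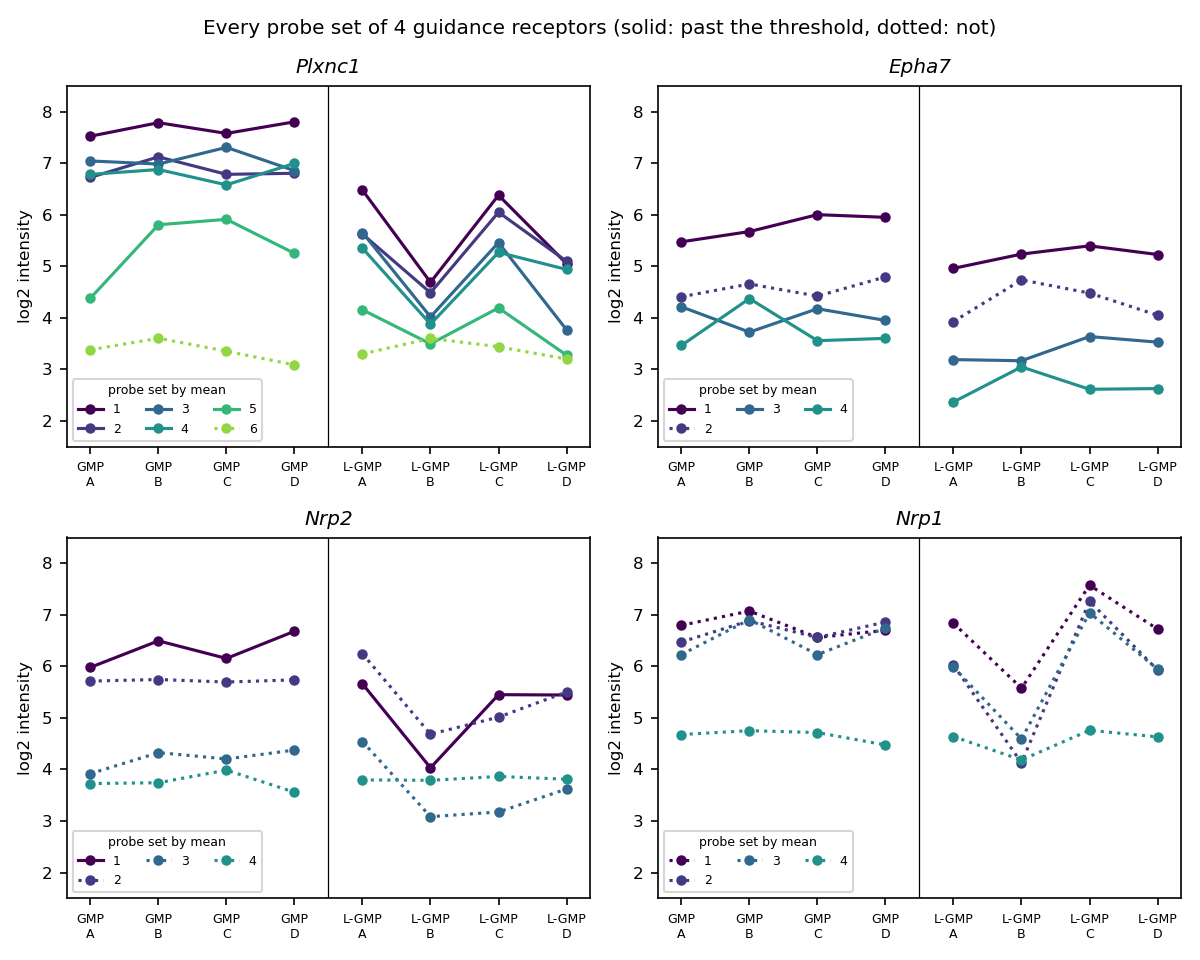
Log2 intensity (y axis) of every probe set of Plxnc1, Epha7, Nrp2 and Nrp1 on each array (x axis). A line joins the arrays of a group for 1 probe set and implies no order between replicates. Of the Plxnc1 probe sets 5 of 6 are lower in all L-GMP arrays, 3 of 4 Epha7 probe sets and 1 of 4 Nrp2 probe sets were called, and L-GMP replicate B is the lowest array in the 3 brightest probe sets of Nrp1.

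Semaphorins are the ligands of these receptors, and 1 of 20 was called. Sema4a, a membrane-bound semaphorin of dendritic and T cells that binds class B and D plexins, read 6.55, 5.44, 5.80 and 5.78 in L-GMPs and 6.69, 7.07, 6.60 and 7.61 in GMPs. The groups did not overlap, though L-GMP replicate A and GMP replicates A and C lay close together. The change was -1.10 (SE 0.26, limma adjusted p = 0.0213), 2.15-fold lower in L-GMPs. It passed the threshold neither without L-GMP replicate C (adjusted p = 0.0534), without GMP replicate B (0.0612) nor without GMP replicate D (0.0553, change -0.90). Its second probe set had a change of -0.92 (adjusted p = 0.0633).

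Sema4d, the CD100 antigen of lymphocytes and platelets, was next in order of fall. It read 7.61, 7.88, 7.95 and 7.63 in L-GMPs and 8.17, 8.16, 8.01 and 8.46 in GMPs. The groups did not overlap, and the change of -0.43 (SE 0.13) missed the threshold (limma adjusted p = 0.0530). It passed under 5 of 18 alternatives, quantile normalization among them (adjusted p = 0.0344), and adjusted p ranged from 0.0308 to 0.213. Its 2 dimmer probe sets had changes of -0.18 and 0.00.

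Among the other class 4 semaphorins Sema4c had a change of 0.49 (adjusted p = 0.103) and Sema4b, Sema4f and Sema4g of -0.13 to 0.11. Sema7a, the ligand of PLXNC1, read 5.55 to 5.72 in L-GMPs and 5.53 to 5.81 in GMPs. Its change of 0.03 had a 95% interval from -0.19 to 0.26, so no fall like that of Plxnc1 was seen in its ligand. Sema3e, the ligand of PLXND1, lay below the lower quartile on every array, with a change of 0.15 (adjusted p = 0.380).

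The 7 class 3 semaphorins, secreted ligands most of which use neuropilins, had changes of -0.12 to 0.38. Sema3f, the ligand with a preference for NRP2, had the highest of these at 0.38 (SE 0.12, limma adjusted p = 0.0582). It passed without L-GMP replicate D (0.47, adjusted p = 0.0224). It also passed under both other scalings, both filters on dim genes, an offset of 16 and array weights. In L-GMPs it read 6.53, 6.48, 6.36 and 6.11, and in GMPs 5.93, 6.01, 6.11 and 5.90. The groups met at 6.11. Of the 4 class 6 semaphorins, transmembrane ligands of class A plexins, Sema6c and Sema6b were higher on every L-GMP array. Their changes were 0.36 (adjusted p = 0.0591) and 0.34 (adjusted p = 0.0956), and Sema6c passed without L-GMP replicate B (0.44, adjusted p = 0.0225). Sema6c also passed under the same scalings, filters, offset and array weights as Sema3f, and Sema6b under both other scalings. Sema6a had a change of 0.31 and Sema6d of -0.20, and the class 5 genes Sema5a and Sema5b of 0.07 and -0.13.

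**Figure D3:**
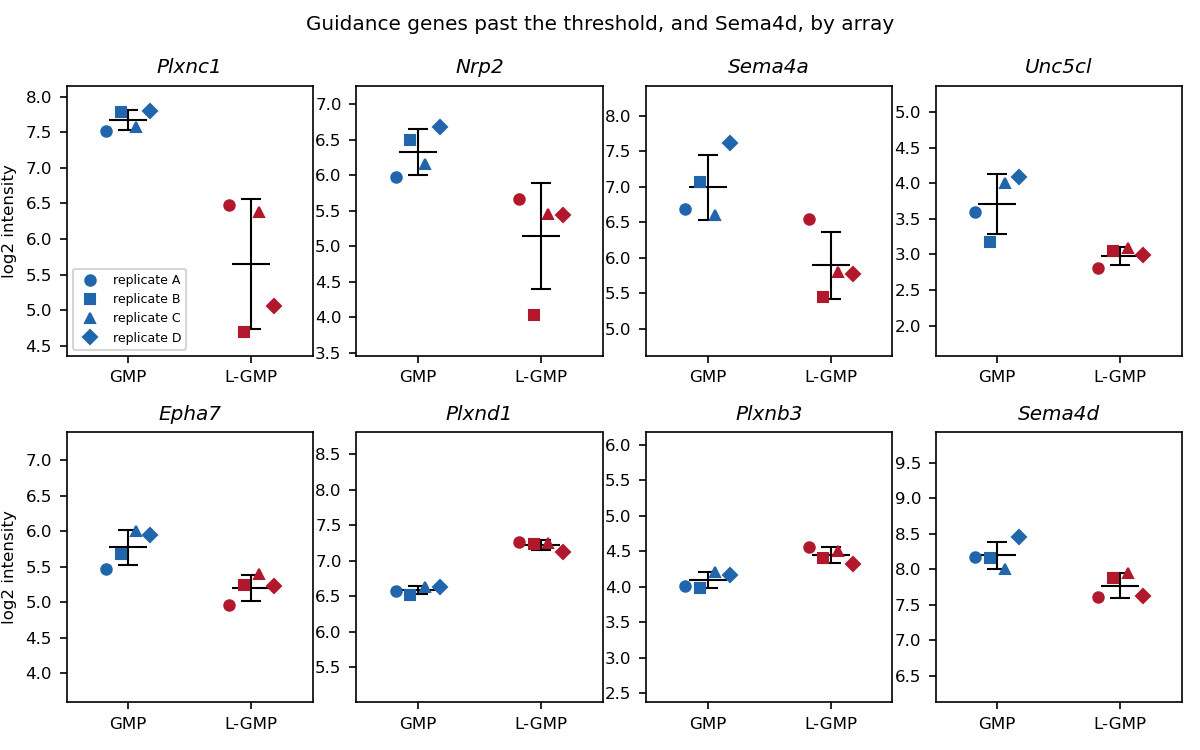
Log2 intensity of the 7 guidance genes past the threshold and of Sema4d, 1 point per array, shaped by replicate letter, with the mean and SD of each group (n = 4). Each panel spans the same height on the log2 scale. Plxnd1 shows the smallest spread, and Plxnc1 and Nrp2 the widest among L-GMPs.

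Of the 13 Eph receptors 1 was called. Epha7, a receptor of A ephrins, read 4.96, 5.24, 5.399 and 5.23 in L-GMPs and 5.48, 5.68, 6.004 and 5.95 in GMPs. The highest L-GMP array lay just under the lowest GMP array, and the change was -0.57 (SE 0.14, limma adjusted p = 0.0270). In the fit over all probe sets 3 of its 4 were called lower, with changes of -0.57, -0.63 and -1.09. The call on the brightest was lost without L-GMP replicate A or D (adjusted p = 0.0751 and 0.0503) and without GMP replicate B, C or D (0.0536, 0.0799 and 0.0827), and under both other scalings between arrays (0.0592 and 0.0584).

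Epha1 and Epha2, receptors found in epithelia, had the highest changes of the remaining 12. Epha1 read 6.31, 6.64, 6.48 and 6.26 in L-GMPs and 6.18, 6.07, 5.91 and 6.13 in GMPs, with no overlap in any of its 3 probe sets. Its change of 0.35 (SE 0.11, limma adjusted p = 0.0773) passed in the mean of its probe sets (adjusted p = 0.0217). Epha2 had a change of 0.53 (adjusted p = 0.0828), and 0.69 without L-GMP replicate B (0.0161). It also passed after median centring (0.0351) and with array weights (0.0286). Epha5 had a change of -0.33, and of -0.48 without L-GMP replicate C (adjusted p = 0.0436). The 4 EphB receptors had changes of -0.27 to 0.26. Ephb3, the brightest of them, had a change of -0.13 (limma adjusted p = 0.5535), and Ephb4, the venous receptor of EFNB2, of 0.26 (adjusted p = 0.474).

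No ephrin was called by limma, and 1 of the 8 had an unadjusted p under 0.05, as 26.2% of all genes did. That gene, Efna5, read 4.80, 4.63, 4.82 and 4.81 in L-GMPs and 4.45, 4.25, 4.63 and 4.44 in GMPs, with a change of 0.32 (adjusted p = 0.0823). The 5 A ephrins, anchored to the membrane by a lipid, had changes of 0.21 to 0.35. The 3 transmembrane B ephrins had changes of -0.20 to 0.07. Efna2 and Efna3, the brightest ephrins, had changes of 0.21 (95% interval -0.02 to 0.44) and 0.30 (-0.06 to 0.66).

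Netrins and the genes named after their receptors gave 1 call among 12. Unc5cl read 2.81, 3.05, 3.09 and 2.99 in L-GMPs and 3.59, 3.17, 4.005 and 4.09 in GMPs. The L-GMP arrays lay near the 10th percentile of all probe sets (2.84 to 2.92), so the size of its change of -0.73 (SE 0.19, limma adjusted p = 0.0291) is uncertain. With an offset of 16 added to each intensity the change was -0.30 (adjusted p = 0.0701). Such an offset shrinks any change at so low a signal, so that value does not measure the true size. The call was also lost on leaving out A, C or D of the L-GMPs (0.0791, 0.0520 and 0.0566) or C or D of the GMPs (0.0868 and 0.0830). The netrins Ntn1, Ntn3, Ntn4, Ntn5, Ntng1 and Ntng2 had changes of -0.21 to 0.24, and the receptors Unc5a, Unc5b, Unc5c and Unc5d of -0.13 to 0.14. Unc50 was bright in both groups, at 9.66 to 9.78 in L-GMPs and 9.67 to 9.92 in GMPs, and did not pass (change -0.06, 95% interval -0.28 to 0.15).

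No Slit or Slitrk gene was called by limma, and 1 of the 9 had an unadjusted p under 0.05, against the same 26.2% of all genes. That gene was Slitrk2, with a change of 0.64 and adjusted p = 0.166. It read 4.11, 3.84, 3.60 and 5.04 in L-GMPs, where replicate D alone was high, and 3.17 to 3.79 in GMPs. Slit1 had a change of 0.20 (95% interval -0.04 to 0.45) and Slitrk3 of 0.09 (-0.15 to 0.34). Slit2 and the genes Slitrk4, Slitrk5 and Slitrk6 lay below the lower quartile on every array.

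The split between higher and lower calls depended on the scaling between arrays. In place of 2 higher and 5 lower, centring each array on its median gave 11 higher and 3 lower, and quantile normalization gave 9 higher and 4 lower. Centring moved the median change of all genes from 0.01 to 0.15 and the share of all calls that were higher from 39.7% to 70.1% (49.5% after quantile normalization). The members added as higher under both scalings were Efna5, Epha1, Plxnb1, Sema3f, Sema4c, Sema6b and Sema6c. The direction of changes near the size of that shift therefore holds only relative to it. Plxnc1, Sema4a, Plxnd1 and Plxnb3 were called in the same direction under all 3 scalings.

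The partners of these pathways, 112 measured genes of 118 listed for their known roles, held 22 calls (19.6%), 10 higher and 12 lower, where 12.1% of all genes were called, 4.78% higher and 7.27% lower. The list was drawn up with earlier results of these data known, so its share is not that of a blind choice. Of 35 partners of Eph and ephrin signalling 1 was higher and 4 were lower, and the median change was -0.02. Grb10 and Fyn, an adaptor and a SRC family kinase that bind Eph receptors, fell, with changes of -5.20 (SE 0.15) and -1.82 (SE 0.14). The other probe sets of Grb10 had changes of -2.05 and -0.88, and the mean of all 3 gave -2.71. Kalrn fell by 0.55, although 7 other probe sets of it had changes of -0.37 to 0.10, and Inppl1, the lipid phosphatase SHIP2, rose by 0.65. Kalrn lost its call under both other scalings, in the mean of its probe sets, and on leaving out L-GMP replicate C or, in a separate fit, GMP replicate D (adjusted p up to 0.243 over all alternatives).

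Of 47 semaphorin and plexin partners 6 were higher and 5 lower, with a median change of -0.003. Rras2, which belongs to the R-RAS group of GTPases on which plexins act, fell by 2.01 (SE 0.17), and Arhgap5 fell by 1.98 (SE 0.14). Cd72, an inhibitory receptor that binds SEMA4D on B cells, fell by 1.66 (SE 0.24, limma adjusted p = 0.0013). It read 5.59, 6.17, 5.005 and 4.91 in L-GMPs and 6.999, 7.002, 7.25 and 7.05 in GMPs, with no overlap. Itga1, the alpha chain of the integrin that binds SEMA7A, rose by 2.02 (SE 0.48), and its L-GMP replicate B, at 6.89, lay within the GMP range. The Itga1 call was lost when replicate A or C of the L-GMPs, or C or D of the GMPs, was left out, and adjusted p was at most 0.067 over all alternatives.

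Of 30 partners of Slits, netrins and the related RGM ligands 3 were higher and 3 lower, with a median change of 0.10. Dock1, an exchange factor that activates RAC downstream of the netrin receptor DCC, fell by 3.70 (SE 0.21), in both of its probe sets, and Ablim1, an actin-binding protein of the netrin pathway, fell by 3.06 (SE 0.20). A second Ablim1 probe set was lower by a like amount (change -2.73), the other two had changes of 0.02 and -0.20, and the mean of all 4 gave -1.49. Evl, an actin regulator of the ENA/VASP family, rose by 1.23 (SE 0.23), and Lrrc4c, the netrin-G1 ligand, rose by 1.86 (SE 0.36), with changes of 0.82 and 0.20 in its other probe sets and 0.96 in their mean. The L-GMP means of Grb10, Rras2 and Dock1 (3.43, 3.31 and 3.36) were under the first quartile on each array, so the sizes of their falls are uncertain. Over all alternatives the change nearest 0 was -1.11 for Rras2, -1.26 for Arhgap5 and 0.68 for Evl. The ROBO genes had changes of -0.12 to 0.25 and were not called.

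**Figure D4:**
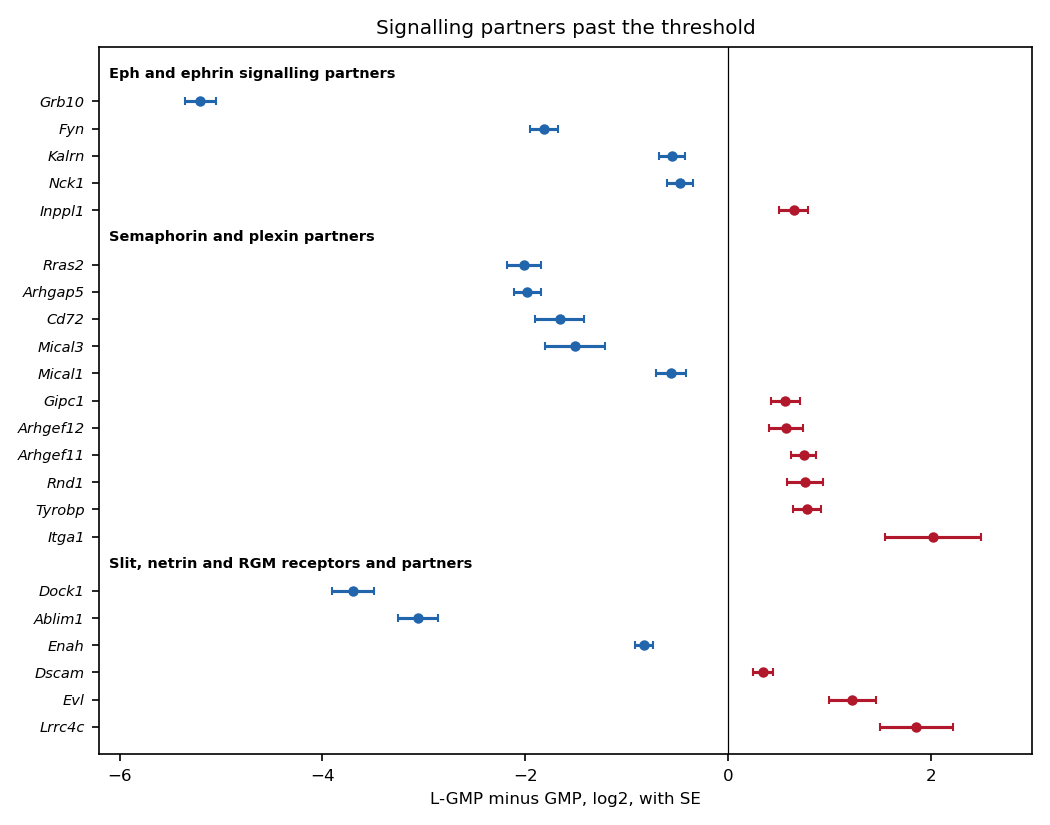
Change of the 22 partner genes past the threshold by partner list, as the log2 difference of L-GMP from GMP (x axis) with its SE. The largest falls are Grb10 at -5.20, Dock1 at -3.70 and Ablim1 at -3.06, and the largest rises Itga1 at 2.02 and Lrrc4c at 1.86.

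Markers of other cell types also differed between the groups. Of 10 granule and progenitor genes that define GMPs 5 were lower in L-GMPs and none higher. These were Elane (-1.75), Csf3r (-1.16), Kit (-0.96), Prtn3 (-0.84) and Mpo (-0.39). Mpo was at 13.2 ± 0.09 in L-GMPs and 13.6 ± 0.04 in GMPs (SD, n = 4). The summed level of the 10 genes, the log2 of their added linear intensities, was 14.68 to 14.95 against 15.3 to 15.4. Such a sum is set mostly by the brightest genes of a list. Of 12 eosinophil, basophil and mast cell markers 10 were lower in L-GMPs (summed level 9.86 to 10.7 against 12.1 to 13.5), of 10 megakaryocyte markers 5 (7.91 to 8.29 against 9.04 to 11.1), and of 10 stem and multipotent progenitor markers 7 (7.26 to 7.60 against 10.1 to 10.5). The 7 stem and progenitor markers include Meis1, which went against the genotype label, and Tek, which is counted again among the endothelial markers. Of 9 erythroid markers 2 were lower, Car2 (-4.32) and Car1 (-1.80). Their list's summed level (10.01 to 10.36 against 10.8 to 11.1) was set mostly by Tfrc, which was not called. Of 11 monocyte and macrophage markers 7 were higher and 1 lower (13.5 to 13.9 against 12.6 to 12.8). The brightest genes of these lists had changes of -0.46 (Mcpt8, adjusted p = 0.253), -1.68 (Itga2b), -5.75 (Prom1), -0.39 (Tfrc, adjusted p = 0.0676) and 1.57 (F13a1). In a bulk sample fewer cells of a type and less RNA per cell cannot be told apart, and the part of these cells in the changes of Plxnc1, Nrp2, Sema4a and Plxnd1 was not tested.

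Endothelial cells are a known source of neuropilins, PLXND1 and ephrins. Their 12 markers were 1 higher and 4 lower, and their summed level overlapped between groups (9.37 to 9.70 in L-GMPs, 9.37 to 9.66 in GMPs), with Kdr below the lower quartile on every array and Pecam1, the brightest, higher by 0.75. The 4 lower ones were Tek (-2.48), Tie1 (-2.01), Emcn (-0.71) and Eng (-0.48). Stromal markers gave 0 calls by limma among 12 (8.69 to 9.11 against 8.51 to 9.01). B cell markers gave 0 among 9 (9.03 to 9.77 against 9.02 to 9.24) and T and NK cell markers 1 among 10 (7.65 to 7.78 against 7.51 to 7.65). Dendritic cell markers gave 1 among 11, with a summed level of 11.7 to 12.3 against 11.1 to 11.3. That 1 gene, Flt3, was higher in L-GMPs by 3.29 (SE 0.27, limma adjusted p = 2.23e-05).

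Pairs of arrays from the same group correlated at 0.983 to 0.994, and pairs from different groups at 0.967 to 0.974. GMP replicate D stood apart in RNA quality. Its 3′ Gapdh control exceeded the 5′ control by 2.74, where the remaining 7 arrays showed 1.24 to 1.76. It was the highest GMP array for Plxnc1, Nrp2, Sema4a, Unc5cl, Plxnd1 and Sema4d. Without it only Plxnc1 (-1.98) and Plxnd1 (0.64) of the 7 calls passed, and without it and L-GMP replicate B these passed together with Nrp2 (-0.69, limma adjusted p = 0.0274) and Epha2. The share of all genes called was then 7.83% and 8.56%. Leaving out GMP replicate B or, in a separate fit, GMP replicate C gave 1 higher and 2 lower calls, with 7.76% and 8.08% of all genes called. The part of RNA quality in these losses was not tested.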

How the data were processed

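RNA from 8 sorted samples was measured on Affymetrix arrays. The labels' protocol names a whole transcript sense labelling kit, whereas the probe sets are those of a 3′ expression array, so the strand and the part of the transcript that the values report are not settled, and the 3′ and 5′ control values are read with that doubt. The authors' deposited intensity values are on a linear scale (3.54 to 29747, read from the values) and were made with RMA, per the submitters' processing notes; no version of it was found in those notes. RMA shrinks low signals together, so changes near the floor are understated. Log2 was taken, 64 control probe sets were left out of 45101, and 34945 probe sets with 1 symbol in the platform annotation (932 had several, 9160 none) gave 18193 genes. All 74 members matched RefSeq by Entrez identifier, and 47 had several probe sets. Detection calls and batches were not used. Precision is limited by there being 4 arrays a group.

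The groups were compared with limma 3.58.1 (R 4.3.3; lmFit, eBayes, group alone, 2-sided, Benjamini-Hochberg over all genes, or over all 45037 probe sets where said) and tested on simulated data. The genes described singly are the called members, the 2 brightest others of each family up to 4 called genes of each partner list and the brightest gene of a marker list; further members singled out (Sema3f, Sema4c, Sema6c, Sema6a, Sema7a, Sema3e, Epha2, Epha5, Ephb4, Efna5, Plxnb1, Slitrk2 and the rest) were chosen after their values were seen. Members and lists were chosen with earlier results of these data known. Promoter windows are RefSeq's (GRCm38.p6). The alternatives were 2 other scalings, 2 filters on dim genes, an offset of 16, averaging all probe sets per gene, array weights, a robust prior with a trend, a block for the replicate letter, and arrays left out; for the partner genes these were added after seeing the data.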

Additional observations from a re-analysis of the deposited data

Results flagged for a closer look

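Among the 20 guidance genes chosen by rule, 40 groups of 4 arrays were searched for an array far from the other three, where chance gives about 1 in 20, or 2 of the 40. The number found, 2, equals that. Nrp2 read 4.03 in L-GMP replicate B, against 5.44 to 5.66 on the other L-GMP arrays. Slit1 read 5.67 in GMP replicate C, against 5.945 to 5.995 on the other GMP arrays.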

How the results depend on the processing

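Plxnc1 and Plxnd1 kept direction and call under all 18 alternatives. Nrp2 and Epha7 lost the call under 8 of 17 alternatives each, Unc5cl under 8 of 16, Sema4a under 4 of 18 and Plxnb3 under 11 of 17. None changed direction. The settings not counted are filters on dim genes that removed the gene. The higher calls among guidance genes, 2 in the main setting, were 11 after median centring, 9 after quantile normalization, 4 without the dimmest 25% of genes (45 members left to test), 7 with array weights, and 1 with the trended robust prior and with the replicate letter as a block. The lower calls, 5 in the main setting, were 3 after median centring, 3 without the dimmest 50% (14 members left, which removed Nrp2, Epha7, Unc5cl and Plxnb3) and 2 when L-GMP replicate B was left out along with GMP replicate D. Leaving out 1 array gave 1 to 4 higher calls, 1 to 5 lower calls and 1411 to 2388 calls over all genes (1425 without GMP replicate D). Member probe sets called were 13, and 23 after median centring. The cause of these differences was not tested. Deviations of same-lettered arrays correlated at -0.07 to 0.11, and those of other pairs across the groups at -0.12 to 0.11. Such weak values cannot tell what the letters stand for, so whether they pair the arrays is not settled. The block gave 1760 calls over all genes against 2193. Calls among partner genes were 15 to 26 under all alternatives, against 22. Signal near the floor limits the sizes for Unc5cl, Grb10, Rras2 and Dock1.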

Other observations

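Of the 74 guidance genes, 29 (39.2%) had their lowest L-GMP value in replicate B, against 26.0% of all genes, and 27 (36.5%) had their lowest GMP value in replicate C, against 27.0% of all genes. The dimmest of the 3 Unc50 probe sets had a change of -0.61 (limma adjusted p = 0.0417 over all probe sets) and the groups did not overlap in it, whereas the brighter probe sets had changes of -0.06 and 0.00. Tyrobp, an adaptor that carries plexin A1 signals with TREM2 in dendritic cells and osteoclasts, rose by 0.78 (SE 0.14), and Mical3, of the family of oxidoreductases that act downstream of plexins, fell by 1.51 (SE 0.30). These genes were picked with their values in view.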
